A study of Mus musculus with 3 samples.

Results

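Amino acid supply and tRNA charging were described through 42 genes in mouse T-helper 1 cells. They were 7 amino acid transporters, 6 serine and one-carbon enzymes and 5 enzymes of proline, asparagine and aspartate synthesis. The others were 5 genes of the ATF4 response and 19 aminoacyl-tRNA synthetase genes. All 42 were chosen by name for these roles. They were all found among the 50600 genes of the tables, of which 21764 are annotated as protein coding. RNA was sequenced from primary T-helper 1 cells of C57BL/6NJ mice, a helper T cell class that makes interferon gamma. There was 1 group of 3 biological replicates with no added agent, genotype or second condition in the labels, so every result below is a level or a spread and none is a response to a treatment. The labels leave age and sex unstated, point to a protocol for differentiating CD4+ T cells in culture, and list 1 shared donor record for separate cell samples. The spread between replicates may be partly technical or, given the sex-linked counts below, partly between animals, and these cannot be told apart. An exact sign-flip test over 3 libraries cannot give a p below 0.25, and no p-value is given.

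Amino acids enter a T cell through transporters of the plasma membrane, and serine, proline, asparagine and aspartate are also made inside the cell. Each aminoacyl-tRNA synthetase joins an amino acid to its own tRNAs before the ribosome can use it. When tRNAs are left uncharged, the kinase GCN2 (gene Eif2ak4) phosphorylates the initiation factor eIF2, which lowers most translation but raises that of the transcription factor ATF4. ATF4 in turn activates many of the transporter, enzyme and synthetase genes described here, and the mRNA level of Atf4 does not report the amount of its protein. Activated T cells are known to raise amino acid uptake and the serine and one-carbon pathway as they grow.

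The libraries held 4764598, 2568928 and 2815439 gene counts in replicates 1, 2 and 3. Levels are TPM, each gene's counts per base of its length as a share of the library's sum, and 1 TPM was worth 2.25, 1.28 and 1.59 counts per kilobase of transcript. Genes with only 1 to 5 counts numbered 4256, 1235 and 4238, so replicate 2 had far fewer low counts than the others. The X-linked gene Xist had 807, 1110 and 4 counts and the Y-linked gene Ddx3y 161, 0 and 81, so the 3 libraries differed in this although they share a donor record. Replicate 3 had the fewest Xist counts, and its low levels below cannot be told apart from a difference of sex or animal. Reads were counted under strand setting 1, and the labels do not say whether this fits the library kit. The ratio of mt-Nd6, the 1 mitochondrial mRNA read from the light strand and known as scarce, to mt-Co1 was 6.40, 10.3 and 24.5 in counts per kilobase. If the kit calls for the opposite setting, the counts of a gene are not reads of its mRNA, and the levels, folds and zeros below do not give the amounts of mRNA in the cells. Which setting fits was not tested, and every value is given as counted.

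All 10 T cell markers listed were detected, with a summed level from 972 to 1768 TPM, but 2 of 6 T-helper 1 markers were. Among these detected markers the T-helper 1 marker Il12rb2 and the T cell markers Cd247 and Cd3e overlap exons of the other strand. The overlap was 1519, 3007 and 135 bases in the same order. The defining Ifng had 1, 0 and 0 counts and Tbx21 had 2, 10 and 2. The file headers carry a time tag of 16 hours. No marker of B cells (0 of 5), NK cells (0 of 3) or erythroid cells (0 of 3) reached 1 TPM in every library. The B cell marker Cd79a had 27, 0 and 17 counts, however, or 8.22, 0 and 7.34 TPM, with its 0 in the library of few low counts. Csf1r was the detected 1 of 5 myeloid markers, at 124 TPM with an overlapping gene on the other strand, and the other 4 had no counts. Of 2 CD8 markers Cd8b1 was detected and Cd8a had 0 counts. In bulk RNA fewer cells with a transcript and less of it per cell cannot be told apart.

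Most of the 42 genes had high TPM as counted, under the strand limit given above. A gene was called detected at 1 TPM or more in every library, and 39 of 42 were, against 39.8% of all coding genes. The level was at least 10 TPM in every library for 37 of them. The exceptions to detection were Asns, Trib3 and Chac1, and of these only Chac1 was under 1 TPM in every library, as were 51.1% of coding genes. The median of the 42 mean levels was 51.6 TPM, against 14.1 TPM for detected coding genes, which is a 3.67-fold ratio. Computed library by library the log2 ratio was 1.86 ± 0.11 (SD, n = 3). The middle member stood at percentile 92.9 of all coding genes and 82.1 of the detected ones. Together the genes took up 0.292% ± 0.0782 (SD, n = 3) of the summed TPM of all genes.

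The roles differed in level. Serine and one-carbon enzymes had the highest median, 79.6 ± 26.6 TPM (SD, n = 3), followed by the synthetases at 61.9 ± 22.8 TPM, the transporters at 36.1 ± 10.97 TPM, the proline, asparagine and aspartate enzymes at 27.2 ± 14.0 TPM and the ATF4 response at 4.29 ± 2.47 TPM. Much of that SD is shared by all roles, because replicate 3 was low for most of them. Set against the median of all 42 genes in the same library, the log2 difference was 0.61 ± 0.14 for serine and one-carbon enzymes, 0.25 ± 0.17 for synthetases, -0.48 ± 0.08 for transporters, -0.94 ± 0.34 for proline, asparagine and aspartate enzymes and -3.37 ± 0.31 for the ATF4 response (SD, n = 3). The order of these differences was the same in each of the 3 libraries, although the ranges of serine enzymes and synthetases came close, as did those of transporters and proline, asparagine and aspartate enzymes. The order of the top roles turned under other settings. Over genes clear of the opposite strand the difference was 0.41 for serine enzymes and 0.52 for synthetases. Without division by length it was 0.20 and 0.28 in the same order. With only genes of a mean count of at least 10, the ATF4 response turned from the lowest role to the highest, at 1.68. Trib3 and Chac1 then leave it.

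**Figure D1:**
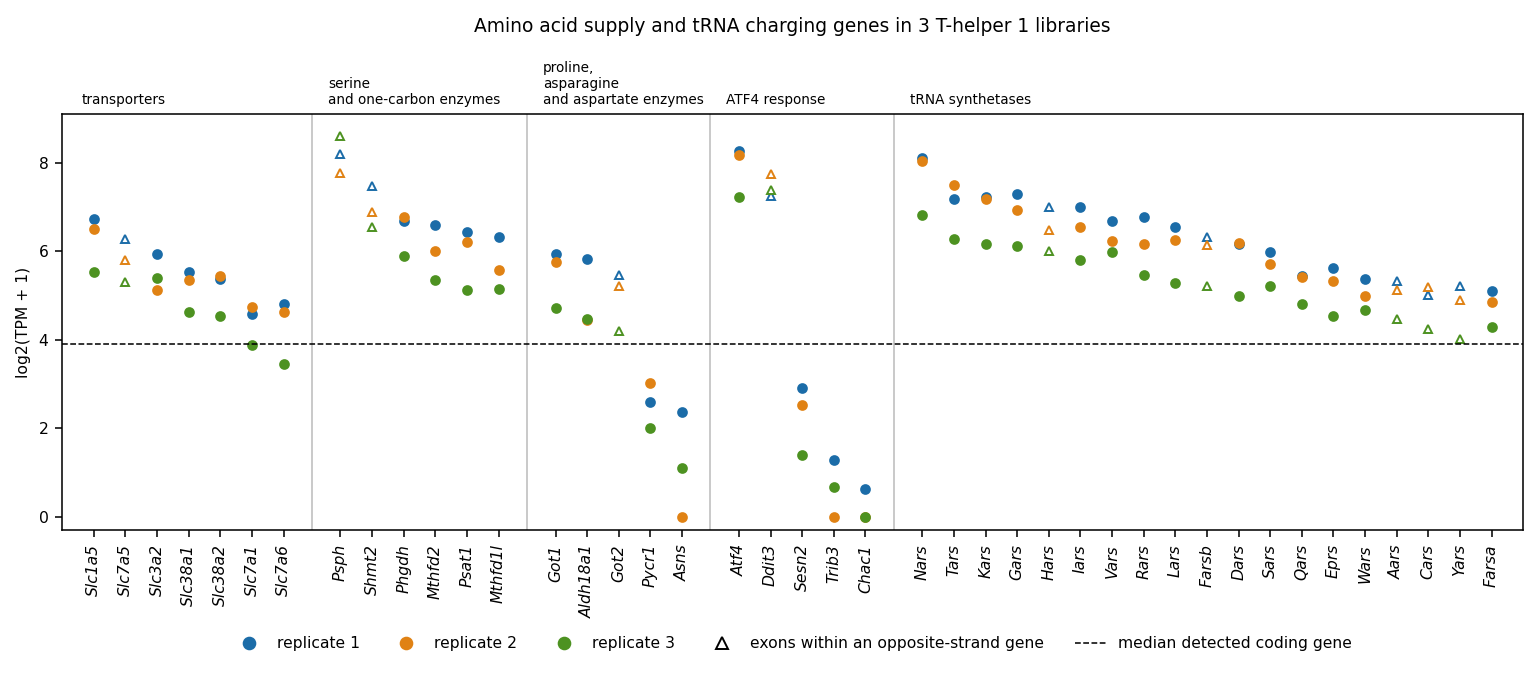
Level of each of the 42 genes, grouped by role, as log2(TPM + 1) on the vertical axis with 1 point for each of the 3 replicates. Open triangles mark genes with exons inside an opposite-strand gene, and the dashed line is the median detected coding gene. The ATF4 response spans the whole range, from Atf4 at a mean of 248 TPM to Chac1 at 0.181 TPM, while the means of all 19 synthetases lie between 26.6 and 216 TPM.

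Among the transporters the glutamine carrier and the large neutral amino acid exchanger led. Slc1a5 (chr7:16781340-16798274, plus strand, mm10), which carries glutamine and other neutral amino acids, stood at 104, 89.0 and 45.2 TPM in replicates 1, 2 and 3. Slc7a5 (chr8:121881150-121907694, minus strand), the light chain of the leucine exchanger LAT1, measured 76.1, 55.0 and 38.8 TPM. Its heavy chain partner Slc3a2, which brings LAT1 and related carriers to the membrane, measured 60.1, 33.8 and 41.2 TPM. Thus replicate 3 was the lowest library for both carriers and replicate 2 for the heavy chain.

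The log2 ratio of Slc7a5 to Slc3a2 was 0.34, 0.70 and -0.08, a mean of 0.32 ± 0.39 (SD, n = 3). Light and heavy chain transcripts were therefore not separated beyond the replicate spread, and the sign turned in replicate 3. Slc3a2 also serves other light chains, among them the product of Slc7a6, which exchanges cationic for neutral amino acids and was the lowest transporter at 27.2, 23.8 and 10.05 TPM. Slc7a1, the main carrier of arginine and lysine, was level with it at 23.1, 25.6 and 13.7 TPM. The sodium-coupled glutamine and alanine carriers Slc38a1 and Slc38a2 lay between, at 44.9, 39.6 and 23.8 TPM and at 40.4, 42.4 and 22.2 TPM. These 2 carriers overlapped in range, and all 7 transporters were detected.

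Serine is made from a glycolytic intermediate by Phgdh, Psat1 and Psph in turn, and Shmt2, Mthfd2 and Mthfd1l then pass its one-carbon unit along the mitochondrial folate pathway. All 6 transcripts had at least 33.7 TPM in every library. Psph (chr5:129765558-129787449, minus strand), which removes the phosphate in the last step, was the highest of the 42 genes with 291, 217 and 388 TPM, and the 1 gene of the 42 that was highest in replicate 3. Among coding genes with a mean of at least 1 TPM, 10.3% were highest there. Phgdh, the first enzyme, measured 102, 108 and 58.4 TPM, and Psat1, the transaminase of the middle step, 86.1, 73.3 and 33.7 TPM. First and middle step therefore shared the low level in replicate 3 that the last step did not show. Psph shares 452 exon bases with Cct6a of the other strand, however, while Phgdh and Psat1 have no such overlap. Among detected coding genes with such overlap 45.3% were highest in replicate 3 after TMM scaling of the counts, against 14.2% of those clear of it. The part of the overlap in the level of Psph was not tested.

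Phgdh exceeded Psat1 in all 3 libraries, with a log2 ratio of 0.24, 0.56 and 0.79 (mean 0.53 ± 0.28, SD, n = 3), on a scale that divides by transcript length. Psat1 was below Psph by a log2 ratio of -2.28 ± 1.08 (SD, n = 3), which widened to -3.52 in replicate 3. Shmt2, which splits serine into glycine and a one-carbon unit in mitochondria, measured 176, 118 and 92.4 TPM. Mthfd2, the mitochondrial folate dehydrogenase and cyclohydrolase, measured 95.8, 62.9 and 39.9 TPM. The ratio of Shmt2 to Mthfd2 was stable, with a log2 mean of 1.00 ± 0.19 (SD, n = 3). Mthfd1l, which releases formate from mitochondria, was the lowest of the 6 at 78.6, 47.0 and 34.2 TPM.

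The 5 enzymes of proline, asparagine and aspartate synthesis divided by a wide margin. Got1 and Got2, the cytosolic and mitochondrial aspartate aminotransferases, measured 59.9, 53.4 and 25.5 TPM and 43.2, 35.9 and 17.3 TPM. Their log2 ratio of 0.53 ± 0.05 (SD, n = 3) had the smallest SD of the 8 functional pairs compared. Without division by length the ratio turned to -0.39, and Got2 has exons under a gene of the other strand. Aldh18a1, which opens proline synthesis from glutamate, measured 55.8, 21.0 and 21.3 TPM and so was high in replicate 1 alone. Pycr1, the mitochondrial enzyme of the last step to proline, had only 45, 36 and 19 counts, or 5.07, 7.17 and 3.04 TPM. Aldh18a1 exceeded Pycr1 by log2 ratios of 3.46, 1.55 and 2.81 (mean 2.61 ± 0.97, SD, n = 3).

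Pycrl, which carries out the last proline step in the cytosol, had a higher level than Pycr1, at 38.4 ± 14.4 TPM (SD, n = 3). Asns (chr6:7675169-7693254, minus strand), the only enzyme known to make asparagine in mammalian cells, had 26, 0 and 5 counts. This is 4.22 TPM in replicate 1 (exact Poisson 95% interval 2.75 to 6.18), 0 TPM in replicate 2, where 0 counts allow up to 0.860 TPM, and 1.15 TPM in replicate 3 (0.373 to 2.68). Intervals of this kind cover counting error only. Asns thus stood at least an order of magnitude below the synthetase Nars, which charges tRNA with asparagine, in each library, and its log2 spread of 1.19 was the largest of the 42.

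Of the 5 genes of the ATF4 response, Atf4 and Ddit3 were high and Sesn2, Trib3 and Chac1 low. Atf4 (chr15:80255184-80257540, plus strand) measured 307, 289 and 148 TPM. Ddit3 (chr10:127290774-127296288, plus strand), which encodes the stress factor CHOP, measured 150, 213 and 167 TPM with the smallest SD of the 42 on the log2(TPM + 1) scale, 0.26. With TMM scaling of the counts its log2 SD was 0.42, above the median of 0.29, so it was not steady on that scale. Because Atf4 was lower in replicate 3 and Ddit3 was not, their log2 ratio ran from 1.03 over 0.44 to -0.17, a mean of 0.43 ± 0.60 (SD, n = 3).

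Sesn2, an inhibitor of mTORC1 that also senses leucine, measured 6.51, 4.74 and 1.63 TPM from 51, 21 and 9 counts. Trib3, a pseudokinase that restrains ATF4 and CHOP, had 7, 0 and 2 counts, and Chac1, which degrades glutathione, had 2, 0 and 0. A count of 0 allows up to 1.11 TPM for Trib3 and 1.44 TPM for Chac1 in replicate 2. The 3 genes were therefore at or near the detection limit, or a few TPM above it for Sesn2.

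Per unit of length Atf4 exceeded Asns 72.9-fold in replicate 1 (exact 95% interval 49.5 to 112), at least 336-fold in replicate 2 and 129-fold in replicate 3 (54.7 to 399). It exceeded Trib3 210-fold (102 to 524), at least 261-fold and 250-fold (68.8 to 2073) in the same order. Against Chac1 the ratio was 567-fold (157 to 4686) in replicate 1, at least 201-fold in replicate 2 and at least 129-fold in replicate 3, each lower bound taking 3 counts for 0. Against Sesn2 the ratio was 47.2, 60.9 and 90.9. These 4 genes were thus far below Atf4 in every library, while Ddit3 was within a factor of 2.05. ATF4 activates many other genes of the set, and most of the set had high TPM, so these 4 do not stand for all its targets. The zeros of Asns and Trib3 fell in replicate 2, the library with few low counts, and the part of that in these zeros was not tested.

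ATF4 binds DNA with CEBP partners at a composite element whose core can be written TGATGNAA, where N is any base. Promoters of 300 bases, from 250 before to 50 after each start, were taken from RefSeq (GRCm38.p6) and matched for 32 of 42 genes, with 35 starts. The core was present on either strand in 10 of the 32 genes (31.2%), or 10 of 35 promoters (28.6%), against 3.97% of all 32851 promoters. The form TGATGCAA, which is contained in it, occurred in 7 genes and in 0.895% of all promoters. The longer forms TGATGNAAT and ATTGCATCA, the second being a reverse complement that overlaps TGATGCAA, occurred in 4 and 3 genes and in 0.965% and 0.192% of promoters. Of 2 other motifs, CACGTG, the core bound by MYC, occurred in 5 genes (14.3% of the 35 promoters), against 7.15% of all promoters. CCAAT occurred in 17 genes (48.6% of the 35 promoters), against 37.4%. Both were thus also more frequent in the set than over all promoters. The set was chosen in part for the ATF4 response, so its share of promoters with the core is not independent of that choice.

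The matches in front of the RefSeq start are shown because they include Asns, Chac1 and Pycr1 of low TPM beside Tars and Gars of high TPM. Each is read 5′ to 3′ on the strand of the gene, with the core, or its reverse complement, in capitals.
Asns, chr6:7693210-7693252, minus strand: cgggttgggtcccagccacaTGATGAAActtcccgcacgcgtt
Chac1, chr2:119351029-119351076, plus strand: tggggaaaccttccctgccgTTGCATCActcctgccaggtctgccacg
Pycr1, chr11:120643824-120643871, minus strand: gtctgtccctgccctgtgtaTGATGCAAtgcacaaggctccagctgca
Got1, chr19:43524680-43524727, minus strand: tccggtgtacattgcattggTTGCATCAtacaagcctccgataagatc
Aars, chr8:111033710-111033757, plus strand: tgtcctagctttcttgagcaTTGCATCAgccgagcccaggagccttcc
Tars, chr15:11399659-11399693, minus strand: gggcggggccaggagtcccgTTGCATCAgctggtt
Gars, chr6:55037951-55037998, plus strand: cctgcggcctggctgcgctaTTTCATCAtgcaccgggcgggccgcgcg
The first capital lies 23 bases before the RefSeq start in Asns, 193 in Chac1, 103 in Pycr1, 102 in Got1, 112 in Aars, 15 in Tars and 30 in Gars. The windows of Asns and Aars lie inside the gene bounds used for the counts. For Gars the bases after the start were not found in a GENCODE transcript of the gene.

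Just after the start the core was found in Iars, Yars, Trib3 and again in Aars, of which the first pair is shown for the TGATGCAA form.
Iars, chr13:49682130-49682154, plus strand: gtcagtaTTGCATCAcctccagacg
Yars, chr4:129189903-129189923, plus strand: agcTGATGCAAcccgacggga
For 26 of the 35 starts the bases that follow lie in a GENCODE transcript of the same gene. A match describes letters and not binding, and a missing match says only that these letters are absent from the window. The 10 genes with the core had a median of 29.1 ± 9.96 TPM (SD, n = 3) and ran from 0.181 to 133 TPM. The 22 without it had 49.9 ± 16.3 TPM and ran from 4.29 to 298 TPM. All 22 genes without the core were detected, and 7 of the 10 with it, the other 3 being Asns, Trib3 and Chac1. The median of the genes with the core was the lower in each library, 37.8 against 66.4, 31.3 against 49.2 and 18.2 against 33.9 TPM. Their levels were wide apart, from Tars at 133 TPM to Chac1 at 0.181 TPM, both with the TGATGCAA form.

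All 19 synthetase genes of the set were detected, within an 8.10-fold range of mean level. Nars (asparagine; chr18:64499665-64516557, minus strand) led with 273, 263 and 111 TPM, then Tars (threonine) with 144, 179 and 76.6 TPM and Kars (lysine) with 148, 143 and 71.2 TPM. Gars (glycine) followed with a mean of 115 ± 43.3 TPM (SD, n = 3). Nars was above each of these 3 in all 3 libraries, whereas Tars, Kars and Gars changed places and do not differ beyond their spread.

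At the low end stood Farsa, Yars and Cars. Farsa, the catalytic subunit for phenylalanine, measured 33.4, 27.8 and 18.7 TPM, Yars (tyrosine) 36.3, 28.6 and 15.1 TPM and Cars (cysteine) 31.4, 35.7 and 18.1 TPM. These 3 overlapped fully. Farsb, the partner subunit with which Farsa forms the phenylalanine enzyme, measured 79.1, 69.1 and 36.0 TPM. Farsa was therefore below Farsb in every library, by a log2 ratio of -1.17 ± 0.20 (SD, n = 3) per length, although the protein holds equal numbers of both.

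Between the ends lay Hars, Iars, Vars, Rars, Lars, Dars, Sars, Qars, Eprs, Wars and Aars, with means from 93.2 ± 32.3 TPM for Hars (histidine) to 31.5 ± 9.24 TPM for Aars (alanine; SD, n = 3). Wars (tryptophan), which interferon gamma is known to induce, measured 40.4, 30.9 and 24.4 TPM. Qars (glutamine) measured 42.5, 41.9 and 27.1 TPM and Vars (valine) 102, 74.1 and 62.7 TPM, and these 3 had the smallest spreads of any synthetase. Dars (aspartate) measured 70.4, 71.8 and 30.9 TPM, so replicates 1 and 2 were nearly equal and replicate 3 was lower.

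Synthetases fall into 2 classes by the fold of their catalytic domain, and several join a multisynthetase complex. The 8 class I genes had a median of 52.2 ± 17.9 TPM and the 10 class II genes 77.8 ± 26.8 TPM (SD, n = 3), with wide overlap between 26.7 and 91.1 TPM in class I and between 26.6 and 216 TPM in class II. Eprs holds a glutamate enzyme of class I and a proline enzyme of class II in 1 protein and stood at 36.7 ± 13.3 TPM. Genes of the complex (7) had a median of 67.7 ± 27.7 TPM against 55.7 ± 17.8 TPM for the other 12. The medians of class II and of the complex were the higher in each library, but the genes of each division overlapped.

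Mitochondria charge most of their own tRNAs with a second set of synthetases. In 14 pairs of a cytosolic gene of the set and its mitochondrial counterpart, the cytosolic gene was the higher in all 3 libraries for 13. Phenylalanine, with 2 cytosolic subunits, and methionine are outside these pairs and are given after them. Glycine, lysine and glutamine form no pair, because the mitochondrial genes listed include no counterpart of Gars, Kars or Qars. Proline is also outside, because Eprs was paired with the glutamate gene Ears2. The median log2 ratio of cytosolic to mitochondrial gene was 2.20, 2.01 and 1.91, a mean of 2.04 ± 0.15 (SD, n = 3) or 4.11-fold. Nars over Nars2 was the largest with 5.75 ± 0.35, a 53.7-fold ratio, from a mitochondrial gene of 65, 41 and 30 counts. Yars over Yars2 was the smallest positive one with 0.44 ± 0.37. Threonine and cysteine had the narrowest spreads, 3.37 ± 0.11 for Tars over Tars2 and 2.13 ± 0.06 for Cars over Cars2. Wars over Wars2 had the widest, 3.91 ± 1.20, with 6 counts of Wars2 in replicate 3.

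Among the 14 pairs histidine was the exception. Hars measured 128, 88.4 and 63.6 TPM while Hars2 stood at 127 ± 8.42 TPM (SD, n = 3), and their log2 ratio was 0.07, -0.46 and -1.10, a mean of -0.50 ± 0.58. The genes lie head to head on chromosome 18, share 195 bases of exon on opposite strands and are close paralogs, so the split of their reads is uncertain. In the 5 pairs in which neither gene has an exon inside an opposite-strand gene (leucine, arginine, serine, threonine and tryptophan), the cytosolic gene was higher in all libraries, by a median log2 ratio of 3.04 ± 0.13 (SD, n = 3) or 8.20-fold. For phenylalanine the subunit Farsa was level with the mitochondrial Fars2, with log2 ratios of 0.02, 0.15 and -0.69 (mean -0.17 ± 0.45, SD, n = 3), and was the lower in replicate 3. Farsb was above Fars2 by 1.26, 1.46 and 0.25 (mean 0.99 ± 0.65). For methionine Mars was above Mars2 by 3.53 ± 0.60 (SD, n = 3).

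**Figure D2:**
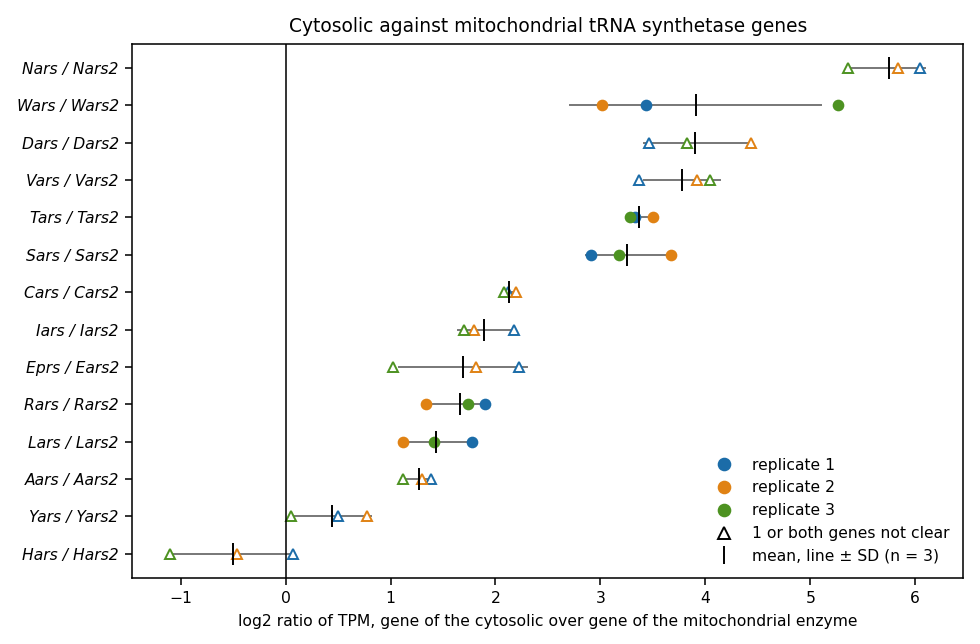
Log2 ratio of TPM (horizontal axis) of the cytosolic to the mitochondrial synthetase gene for 14 amino acids, with 1 point per replicate, a tick at the mean, a bar for ± SD (n = 3) and a vertical line at 0 for equal levels; open triangles mark pairs with a gene inside an opposite-strand gene. Asparagine stands highest at a mean of 5.75, and histidine alone of these 14 has replicates on both sides of 0.

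Other genes of these pathways, taken from 6 lists, were detected in 70 of 97 cases, against 39.8% of coding genes, and under 1 TPM in every library in 17, against 51.1%. Of the mitochondrial synthetases 16 of 17 were detected, led by Hars2, Fars2 (29.4 ± 4.00 TPM) and Lars2 (25.3 ± 10.2 TPM, SD, n = 3). All 4 of the complex scaffold genes with the methionine enzyme were, with Eef1e1 at 128 ± 58.3 TPM, Aimp2 at 84.8 ± 11.4 TPM and Mars at 74.3 ± 24.5 TPM. In the folate and glycine cleavage list 10 of 14 were detected, led by the cytosolic Mthfd1 at 102 ± 38.8 TPM, the serine carrier Sfxn1 at 70.6 ± 35.7 TPM and Gcsh at 62.0 ± 31.4 TPM. Gldc, which decarboxylates glycine in the cleavage system, had no counts, and Mthfd2l and Aldh1l1 were under 1 TPM in every library.

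Of the transporters outside the 7, 7 of 21 were detected and 11 were under 1 TPM in every library, which is near the 39.8% and 51.1% of all coding genes. Slc6a6 (taurine, 25.6 ± 9.81 TPM), Slc38a10 (22.6 ± 4.32 TPM) and the mitochondrial glutamate carrier Slc25a22 (10.4 ± 3.11 TPM) led, and each was below the median of the 7 transporters described. The cystine carrier Slc7a11, itself a known ATF4 target, had 3, 0 and 0 counts. Slc7a2, Slc7a10, Slc38a3, Slc38a4 and Slc38a5 had no counts, and Slc7a3, Slc7a4, Slc7a8, Slc38a6 and Slc38a9 were under 1 TPM in every library.

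Of the glutamine, proline, arginine and branched-chain genes 12 of 17 were detected, led by Glud1 at 43.7 ± 18.5 TPM with Pycrl and Oat (37.9 ± 19.5 TPM) next. Cbs and Cth, the enzymes that make cysteine from homocysteine, were under 1 TPM in every library. Of the sensing and stress genes 21 of 24 were detected. The heme-sensing eIF2 kinase Eif2ak1 stood at 269 ± 13.3 TPM with 659 exon bases under a gene of the other strand, Myc at 204 ± 46.2 TPM and Atf5, a relative of Atf4, at 117 ± 26.0 TPM. Atf5, Hars2, Aimp2, Mars, Mthfd1, Slc6a6 and Slc38a10 likewise have exons inside a gene of the other strand. GCN2 (Eif2ak4) stood at 8.86 ± 3.54 TPM, and the ATF4 partner Cebpg at 8.61 ± 1.43 TPM. The stress target Nupr1 had no counts and Atf3 had 23, 0 and 6, so both were outside the 21 of 24 detected genes. Others of this list, such as Atf5 and Ddit4 (12.2 ± 2.57 TPM, SD, n = 3), were detected, so low counts do not describe its stress genes as a group.

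The spread between replicates followed a common pattern. On the log2(TPM + 1) scale the median SD of the 39 detected genes was 0.58, against 0.50 for detected coding genes. Replicate 3 was the lowest library for 35 of the 40 genes with a mean of at least 1 TPM, against 67.5% of such coding genes, and replicate 1 the highest for 31 of 40, against 57.0%. Median log2 deviations in replicates 1, 2 and 3 were 0.45, 0.18 and -0.56 for the 42 genes, beside 0.32, 0.11 and -0.41 for coding genes. A low replicate 3 is thus shared by most coding genes on this scale.

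The fall in replicate 3 was smaller on other scales, for the set and for coding genes alike. When levels were recomputed over clear genes alone, meaning genes with no exon inside a gene of the opposite strand, replicate 3 was lowest for 19 of 31 clear genes of the set, against 37.1%, and replicate 1 was highest for 17 of 31, against 38.4%. The median deviations were then 0.15, 0.02 and -0.16 for the set and 0.11, -0.06 and -0.02 for clear coding genes. The median SD was 0.22 for 29 detected clear genes against 0.34 for clear coding genes. With TMM scaling of the counts, which assumes that most genes keep their level, the median SD was 0.29 for 39 genes against 0.38, and the median log2 difference of replicate 3 from replicate 1 was -0.41 against -0.22. Under it the highest library was less than 2 times the lowest for 36 of 39 genes, against 72.2% of detected coding genes. The other 3 were Sesn2 (log2 SD 0.71), Psph (0.71) and Aldh18a1 (0.64). The steadiest were the synthetase genes Qars (0.07), Sars (0.09) and Farsa (0.10). Sars, the serine enzyme, had 724, 337 and 295 counts.

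**Figure D3:**
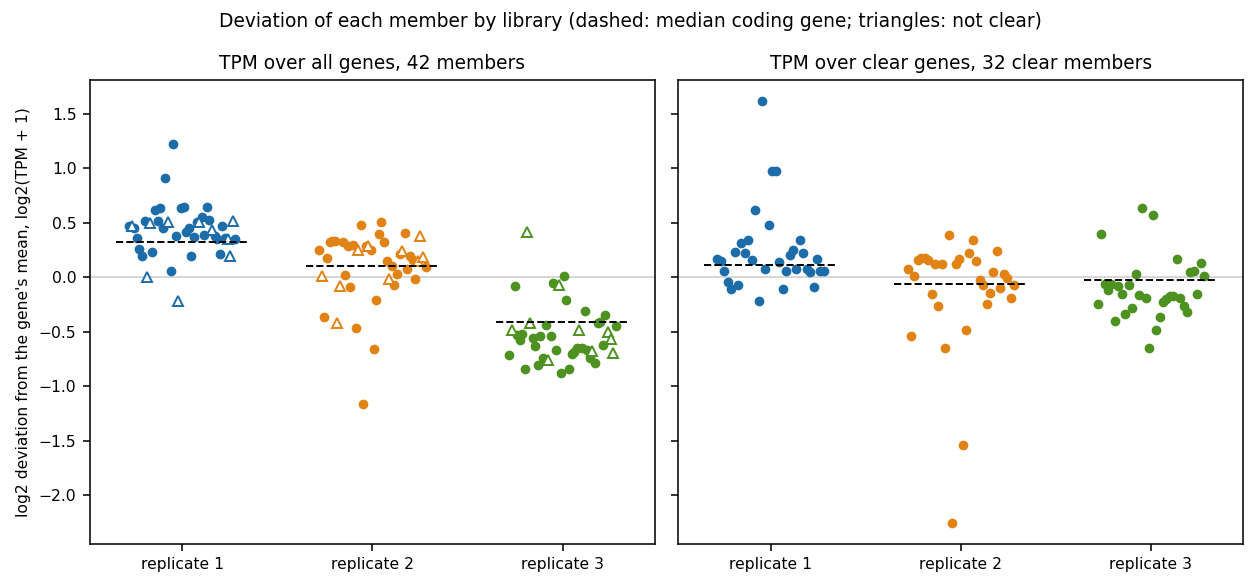
Deviation of each gene from its own mean of log2(TPM + 1), by replicate, for TPM over all genes (left, 42 genes, triangles for those inside an opposite-strand gene) and recomputed over clear genes (right, 32 genes). Dashed lines are the median coding gene, at 0.32, 0.11 and -0.41 on the left, and the points of the set have medians of 0.45, 0.18 and -0.56 there and of 0.15, 0.02 and -0.16 on the right.

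The counting used 1 strand setting on paired reads, per the file headers, and several of the 42 genes have exons under a gene of the other strand. Such overlap was found for 9 of 42, against 22.1% of coding genes and 34.5% of the detected ones: Shmt2, Psph, Got2, Ddit3, Farsb, Yars, Cars, Aars and Hars. Slc7a5 has no shared exon but lies inside the body of the long gene Gm20388, which had no counts. The overlap ranged from 30 bases of Yars to 452 bases of Psph. Among detected coding genes with such overlap, 45.3% were highest in replicate 3 after TMM scaling, against 14.2% of clear ones. Of the 39 genes with a count in every library 3 were highest there, against 25.3% of detected coding genes: Psph and Ddit3, which overlap another gene, and Slc3a2, which does not.

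At Got2 (chr8:95864134-95888547, minus strand) the short unprocessed transcript Gm45760 (chr8:95870814-95872595, plus strand) had 3095, 1919 and 2716 counts, while Got2 itself had 470, 221 and 133. Per kilobase the opposite gene was 17.8, 23.5 and 55.3 times as high. They share 434 bases, or 9.00% of the exon length of Got2. Got2 and Gm45760 therefore moved apart most in replicate 3, where Got2 was lowest. Whether reads of Got2 were counted for Gm45760 was not tested, and the level of Got2 is given as counted.

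At Psph the opposite gene Cct6a, a chaperonin subunit, had 3078, 1528 and 901 counts beside 2837, 1196 and 2670 for Psph. The ratio of Cct6a to Psph per kilobase was 1.30, 1.53 and 0.404, so the order of the genes turned in replicate 3, the library in which Psph was highest. The 452 shared bases are 10.4% of the exon length of Psph. The ratio of Hars2 to Hars per kilobase was 0.954, 1.38 and 2.14, so Hars was below it in replicates 2 and 3. For Aars the small RNA gene Gm24103, 77 bases long, held 12, 3 and 11 counts beside 821, 403 and 314 of Aars. Exosc6, nested in Aars on the same strand, had no counts.

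The other overlaps involved an opposite gene with fewer counts per kilobase in every library. Mars, the methionine enzyme, shares 68 bases with Ddit3 and had 0.682, 0.300 and 0.341 times its counts per kilobase. The ratio reached at most 0.699 for C77080 beside Yars, 0.434 for Gm15580 beside Cars, 0.131 for Sgpp2 beside Farsb and 0.0621 for Ndufa4l2 beside Shmt2. The part of these overlaps in the levels was not tested. Of the 32 clear genes 29 were detected in recomputed TPM, against 37.4% of clear coding genes, and the other 3 were again Asns, Trib3 and Chac1.

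**Figure D4:**
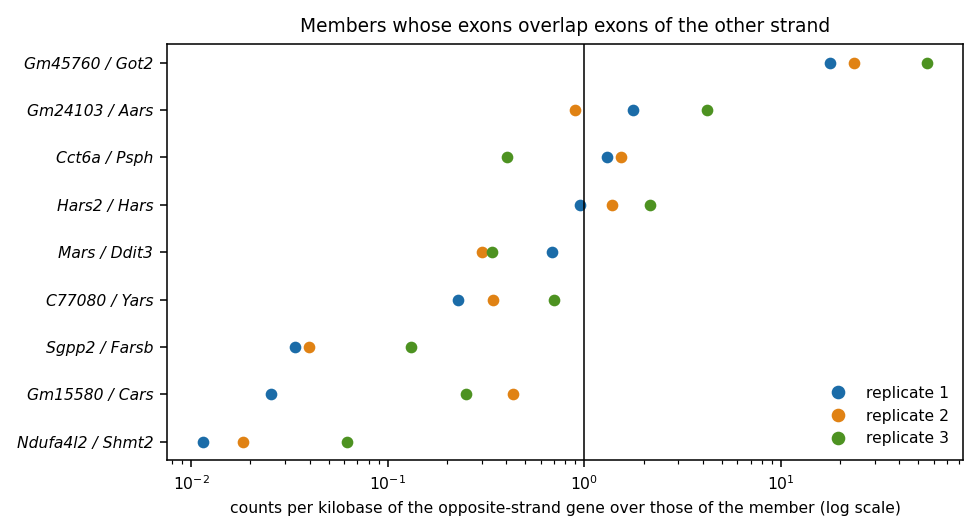
Ratio of counts per kilobase, opposite-strand gene over the overlapped gene, on a log axis with a line at 1 for equal density, for 9 genes with 1 point per replicate. Gm45760 lies 17.8 to 55.3 times above Got2, and Cct6a crosses the line at Psph between replicate 2 (1.53) and replicate 3 (0.404).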

How the data were processed

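The authors deposited gene counts, whole numbers which per the file headers come from paired reads assigned to GENCODE vM13 exons by featureCounts v1.4.6-p4 under strand setting 1, on mm10 per the labels. The sources used here give no aligner version or kit. In the labels total RNA is named while the linked library protocol is named for polyA RNA. TPM was computed from the deposited counts and lengths, overlaps from the deposited exon coordinates, and names came from GENCODE vM21 (50376 of 50600). Values of log2 use a pseudocount of 1, and a 0 allows up to 3 counts. TMM scaling used edgeR 4.0.16 and size factors DESeq2 1.42.0, with Python 3.11.15 and SciPy 1.17.1. The overlap and spread steps were tested on simulated data.

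The 42 genes, the other lists and the pairs were chosen with earlier results of these data known, and the 6 motifs after the data were seen. Values per replicate are given for the 3 highest and 3 lowest genes of each role, the genes of each functional pair, the 5 of largest and the 5 of smallest spread and those under an opposite gene with more counts per kilobase. Of the other lists the 3 highest genes and those under 1 TPM in every library were named, and further genes, such as Eif2ak4 and Cebpg, were picked with their values known. Alternatives were other thresholds, units, filters, scalings, clear genes alone and each replicate left out. No test between groups was possible with 1 group. The result of 1 gene of the other lists is not reported.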

Additional observations from a re-analysis of the deposited data

How the results depend on the processing

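Of 115 alternative values for 19 results, 92 stayed within the replicate spread or within 1.5 times the count. Over clear genes the log2 ratio of the set's median to that of detected coding genes was 2.20 in place of 1.86, the role differences were 0.41 (serine), -1.92 (proline), -4.77 (ATF4) and 0.52 (synthetases), the cytosolic to mitochondrial ratio was 3.04, and 43 list genes were detected, since fewer genes are clear. FPKM gave 1.64 for the set's median. CPM, not divided by length, gave 2.04 for it, -0.12 (transporters), 0.20 (serine) and -3.86 (ATF4) for the roles, 2.28 for the cytosolic ratio and -0.37 for Farsa to Farsb, and it turned Phgdh to Psat1 to -0.24 and Got1 to Got2 to -0.39. A mean count of at least 10 turned the ATF4 difference to 1.68, because Trib3 and Chac1 then leave. The median SD of log2(value per kilobase + 1) was 0.28 with TMM (0.29 without the pseudocount or length), 0.25 with DESeq2 size factors and 0.22 over clear genes. Counting opposite coding genes alone left 5 overlapped genes. Leaving out each replicate gave 1.81 to 2.06 for the set's median and 0.22 to 0.74 for the spread, the lowest without replicate 3. No paired analysis was possible because there was 1 group. Among the 42 genes depth limits Asns, Trib3, Chac1 and Sesn2, each with under 10 counts in at least 1 library.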
